A study of Mus musculus with 40 samples.

Results

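The livers described here came from the 10 mice of a 20-mouse study that ate a fibrosis-inducing diet and received no compound. All 10 were male C57BL/6J mice, an inbred strain, aged 20 weeks at collection. From 8 weeks of age they were fed CDAA-HFD, a choline-deficient diet defined in L-amino acids, with 60 kcal% fat, 0.1% methionine and no added choline. They had eaten it for 4 weeks when the study divided its mice, and continued for 8 weeks more. The other 10 mice, whose diet then held the inhibitor BLT1i, are not analysed here. The 10 mice were chosen by their diet label alone, so no measured value entered the choice. There is no control diet among these mice, so the values are levels and differences between mice with a fatty, scarring liver, and no group was compared with another.

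A liver that cannot make enough phosphatidylcholine for want of choline and methionine exports little triglyceride, fills with fat and, over weeks, becomes inflamed and scarred. Hepatocytes supply most of the RNA of such a liver. The scar is laid down by activated stellate cells, and macrophages that take up lipid gather beside it. Many hepatocyte genes also follow feeding, stress hormones, growth hormone pulses and the time of day, so mice on 1 diet need not have equal levels of them.

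RNA was sequenced after removal of ribosomal RNA, and the deposited table holds 1 whole-number count per protein-coding gene and mouse, with 2 sequencing lanes per mouse in 1 column. Total counts ranged from 20994073 to 27456678. Levels are given below as counts per unit of library size (CPM) scaled by TMM, a factor that evens out the typical gene between libraries, and a CPM compares mice within 1 gene. Genes are compared with each other only by the authors' FPKM, which corrects for gene length and was rounded to whole numbers by the authors. Of 21500 genes, 13369 had at least 1 CPM in at least 5 of the 10 mice and are the genes that the counts below refer to. Mice are named by their label numbers, 31 to 40. The labels give no cage, litter, batch or hour of collection.

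The library of mouse 36 stood apart from the others, and those of mice 37 and 32 did so for fewer genes. The first principal component of log2 CPM held 21.5% of the variance, and mouse 36 had a score of 25.02 on it, while the other 9 mice lay between -11.8 and 7.33. A gene was counted as set apart in 1 mouse when the gap of that mouse to its nearest neighbour exceeded 0.466 of the whole range (Dixon's 95% value for 10 samples, passed by chance in about 5% of genes). This held for 1209 genes, 9.04% of those past the filter. Mouse 36 was the lowest of all in 436 of them and the highest in 285, and mouse 37 was the highest in 99 and the lowest in 26. Mouse 32 was the highest in 36 and the lowest in 77. On the first component mice 37 (-6.58) and 32 (-11.8) lay on the side opposite to mouse 36. Transcript length and GC content moved with the libraries of mice 36 and 37. With genes divided into 4 equal bins, those of the highest GC content had a median log2 deviation of -0.0912 in mouse 36 and those of the lowest GC content 0.0711. In mouse 37 the bin with the shortest transcripts lay at 0.0544 and that with the longest at -0.0389. Across genes, the deviation of mouse 36 had a Spearman rho of -0.32 with GC content, and that of mouse 37 a rho of -0.30 with length, over 13359 genes that share their libraries. What part of any single gene's value in mice 36 and 37 goes with length or GC content was not tested.

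**Figure D1:**
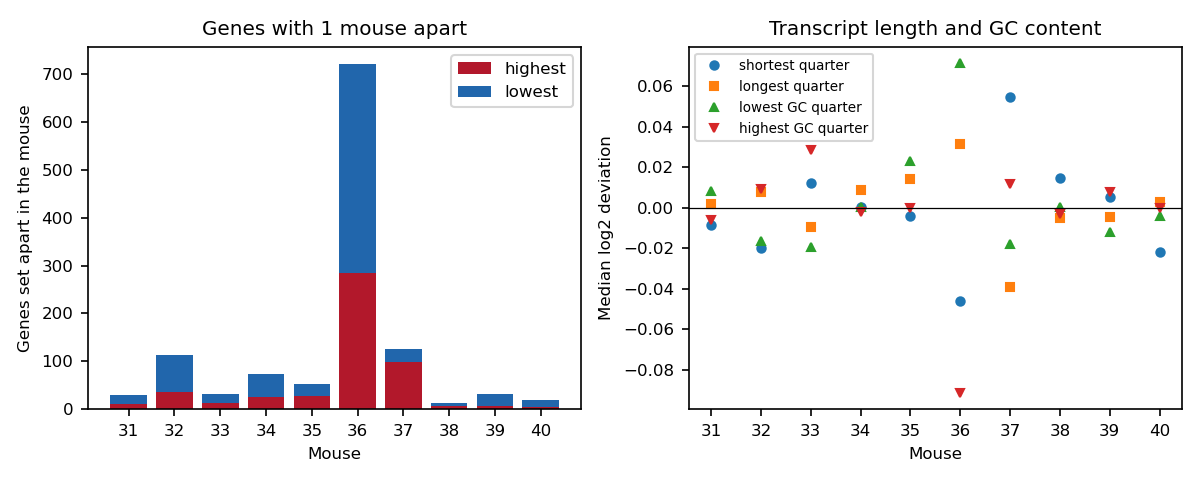
Left, the number of genes for which each mouse (horizontal axis) was set apart from the other 9, as the highest (red) or the lowest (blue) value where mouse 36 has 285 and 436. Right, the median log2 deviation of each mouse for the bins of genes with the shortest and longest transcripts and the lowest and highest GC content, where mouse 36 spans -0.0912 to 0.0711.

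The labelled tissue and sex were checked against marker genes. Summed over 17 secreted hepatocyte proteins, the level was 111400 CPM in the median mouse (range 100280 to 122110). The 4 Y-linked genes of the male check, such as Ddx3y, all passed the filter, with a summed level of 180 to 205 CPM. Of 8 skeletal muscle markers none passed the filter, and the fast myosin Myh4 had 0 counts in all 10 livers. Of 15 pancreas markers only Cela1 passed, at 3.87 to 6.81 CPM, and Pnlip, Cpa1 and Ins2 had 0 counts in every mouse. Of 10 adipocyte markers 3 passed, Car3 at a mean of 1065 CPM, Cidec at 31.9 and Fabp4 at 23.1, while the fat cell hormone Adipoq had 19 counts over the 10 mice together. Neutrophil markers were sparse, with 4 counts of Ly6g in all and 5 of 12 markers past the filter. In bulk tissue, fewer cells of a type and less RNA per cell cannot be told apart, and this holds for every cell type named below.

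The highest levels per length belonged to the secreted proteins of hepatocytes. Alb, serum albumin, had a median of 15406.5 FPKM, followed by Apoe, a lipoprotein ligand of the LDL receptor family, at 7606. Mup20, a major urinary protein that carries pheromones, had 5089.5, and the iron carrier transferrin, Trf, had 4299. Ahsg, Ftl1, Apoa1 and Apoa2 lay between 3824.5 and 4126 FPKM, and Mup22, Hpx, Selenop, Apoc1, C3, Cyp2e1 and Fth1 between 1953 and 2547.5. Among these 15 leading genes Mup22 had the largest biological CV at 0.267, followed by Mup20 at 0.212. Next came Cyp2e1, an ethanol-oxidising cytochrome, at 0.133, Trf at 0.129 and Ftl1 at 0.127. All but Selenop (0.0741) and Alb (0.0512) lay above the median of all genes at 0.0786. Alb ran from 34262 CPM in mouse 31 through a median of 36569 to 41016 in mouse 39, a ratio of 1.20 between the ends. C3, the central complement protein, ran from 10266 to 13605 CPM. The ferritin light chain Ftl1 was 3072 CPM in mouse 36 and 4095 to 5006 in the other 9, and Apoe was 12603 CPM in mouse 37 and 8747 to 10320 in the others, so both values that stand apart fall in the libraries of mice 36 and 37.

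Scar genes and the genes of scar-associated macrophages were measured well above the filter and differed between mice by less than 2-fold in the examples below. Col3a1 and Col1a1, the main fibrillar collagens, had medians of 166 and 121 FPKM. Col1a1 was 676 CPM in mouse 38, 849 in the median and 1040 in mouse 34, with a mean of 840 ± 114 (SD, n = 10). Col3a1 ran from 914 to 1187 CPM, again lowest in mouse 38, with a mean of 1051 ± 77.8 CPM. Col1a2, the partner chain of Col1a1, ran from 440 CPM in mouse 38 to 621 in mouse 34. Both chains of type I collagen were thus lowest in mouse 38 and highest in mouse 34. The lipid-associated macrophage genes differed in their level per length. The osteopontin gene Spp1, which is also among the bile duct cell markers used here, had a median of 409 FPKM. Gpnmb, a lysosomal membrane glycoprotein, had 355.5, the lipid receptor Trem2 58 and Itgax 31. Trem2 ran from 74.6 CPM in mouse 32 to 98.1 in mouse 35, and Spp1 from 515 CPM in mouse 32 to 785 in mouse 36. Acta2, the smooth muscle actin of myofibroblasts, had a median of 19.02 CPM and was highest in mouse 34 at 25.02.

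How much a gene varied is given as its biological CV, the SD of its CPM between mice over the mean after the counting part of the variance is taken out. It also holds differences between libraries, which cannot be told apart from those between mice. At this depth the counting CV of the median gene was 0.0402. By a chi-square test of the counts against Poisson means with Benjamini-Hochberg adjustment, 10857 genes varied beyond counting error, 81.2% of those tested. The usual size was small: the median biological CV was 0.0786, the quartiles were 0.0518 and 0.118, and the 90th percentile was 0.176. A biological CV of 0.5 or more was found for 47 genes, 0.352% of the background, and 25 of them had a mean of at least 5 CPM. At the other end, 21 of 4267 genes with a mean of at least 50 CPM had a biological CV of 0, meaning no spread beyond counting. Csnk2a1, a catalytic subunit of casein kinase 2, is an example at 164 to 170 CPM in all 10 mice, and Cbx3, a heterochromatin protein, was 60.2 to 64.7 CPM.

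**Figure D2:**
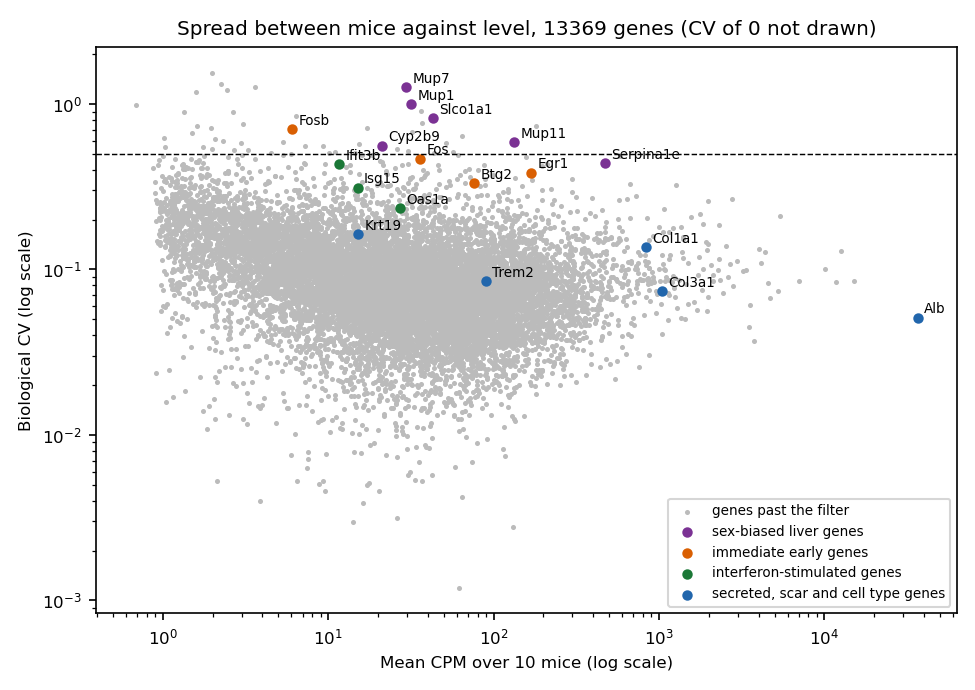
Biological CV between 10 mice (vertical axis, log scale) against mean CPM (horizontal axis, log scale) for genes past the filter, grey, with named genes coloured by group and the dashed line at 0.5. Mup7 at 1.26 and Mup1 at 0.992 lie far above genes of like level, while Alb at 0.0512 and Col3a1 at 0.0738 lie low.

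The gene lists, written for liver biology, differed in how much and how closely their members varied. Over all genes past the filter the median correlation of gene pairs across mice was 0.0001, and the median biological CV 0.0786. Sex-biased liver genes had the largest median spread among lists with over 5 members past the filter, at a biological CV of 0.466 over 22 genes. Glucocorticoid-responsive genes had 0.329 over 13, B and plasma cell genes 0.263 over 8, interferon-stimulated genes 0.240 over 19, and fatty acid oxidation and PPAR-alpha genes 0.214 over 26. Fibrillar and network collagens had 0.0936 over 16 genes, sinusoidal and vascular endothelial genes 0.0876 over 15, complement and coagulation genes 0.0851 over 26, and p53 targets 0.0698 over 14. Interferon-stimulated genes moved most closely together, with a median pairwise r of 0.87. Ribosomal protein genes had 0.74, cholesterol synthesis 0.66, glucocorticoid response 0.64, respiratory chain 0.62 and collagens 0.43, whereas endothelial genes had 0.06 and clock genes 0.07. These list values are descriptions of 10 livers and carry no test.

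**Figure D3:**
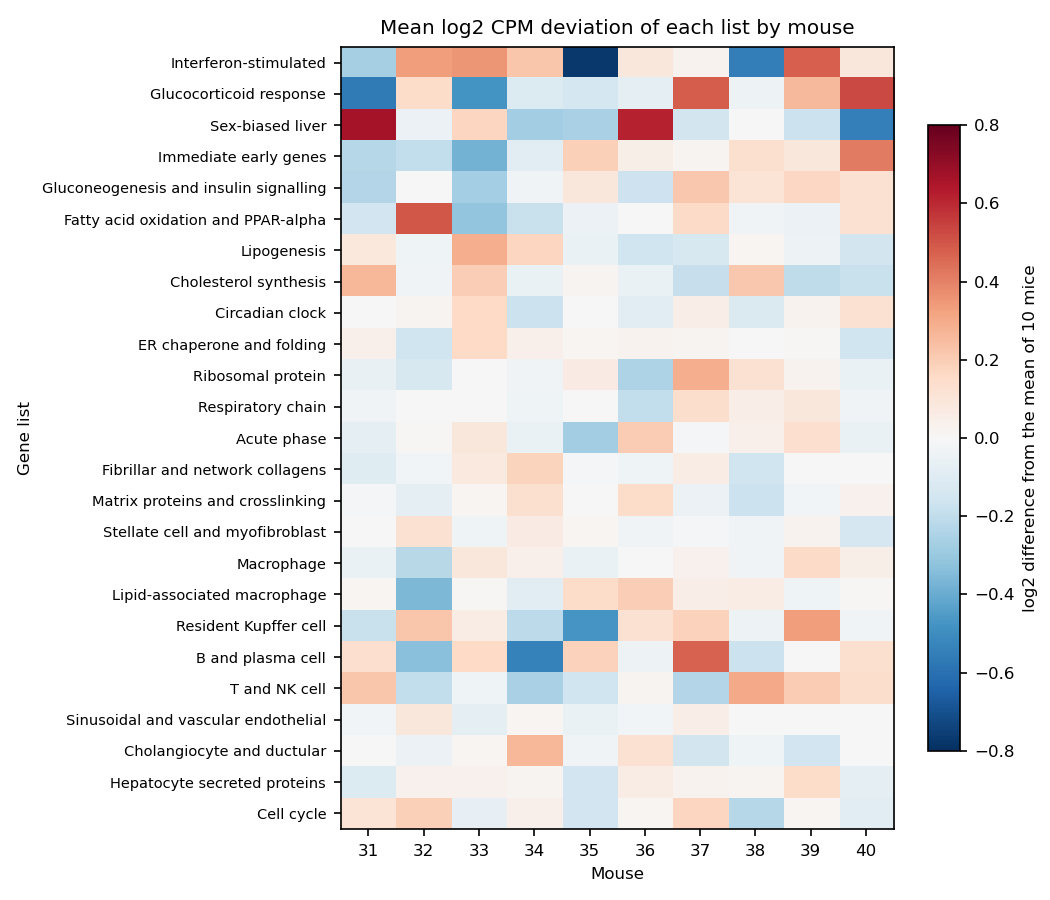
Mean log2 CPM deviation of each gene list (rows) in each mouse (columns) from the mean of the 10 mice, red above and blue below. The interferon-stimulated row runs from -0.77 in mouse 35 to 0.48 in mouse 39, and the collagen row stays between -0.16 and 0.18.

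Among lists with over 5 members past the filter, the widest spread was in genes that male and female mouse livers express unequally under the pattern of growth hormone secretion. The haemoglobin gene Hba-a2, at a mean of 1.99 CPM, had a larger biological CV of 1.54. Of 22 sex-biased genes past the filter, all 22 varied beyond counting error, as did 81.2% of all genes, and 10 had a biological CV of 0.5 or more, against 0.352%. Mup7, a major urinary protein, ran from 5.47 CPM in mouse 39 through a median of 11.4 to 104 in mouse 36. Mice 31 and 36 stood together at 93.8 and 104 CPM, and the other 8 lay at 28.2 or below. Mup1 was 11.02 CPM at the lowest, 15.3 in the median and 97.1 at the highest, again with mice 31 and 36 alone above 80. Slco1a1, a hepatic uptake transporter for organic anions, ran from 10.8 CPM in mouse 34 through 30.7 to 106 in mouse 36. Serpina1e, an alpha-1-antitrypsin gene, ran from 197 CPM in mouse 32 through 466.3 to 826 in mouse 36, and mouse 31 had 724. Cyp7b1, an oxysterol hydroxylase, was 59.1 CPM in both mice 31 and 36 and at most 49.4 in the others.

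Cyp2b9 and Cyp2a4, known to be higher in female liver, were lowest in mouse 36, and in mouse 31 they were 14.1 and 9.08 CPM, neither the lowest. Cyp2b9 ran from 3.19 CPM in mouse 36 through a median of 18.4 to 44.3 in mouse 32, and Cyp2a4 from 5.18 in mouse 36 through 14.1 to 30.97 in mouse 32. Divided by textbook sex bias after the values had been seen, 19 of 19 male-biased genes past the filter correlated positively with the mean of the other male-biased genes, with a median r of 0.81 (range 0.10 to 0.98). All 3 female-biased genes past the filter had a negative r with that mean, -0.80 for Cyp2a4, -0.77 for Cyp2b9 and -0.11 for Acot3. Acot3, an acyl-CoA thioesterase, was 10.6 CPM in mouse 32 and 0.902 to 2.08 in the other 9. Hsd3b5, a male-biased steroid dehydrogenase below the filter, had 2.12 and 1.60 CPM in mice 31 and 36 and at most 0.586 in the others. The male-biased mean was 0.80 in mouse 31 and 0.95 in mouse 36 on the log2 scale and lay between -0.62 and 0.25 in the other 8. Without mouse 36 all 19 male-biased genes kept a positive r, with a median of 0.75, and 2 of 3 female-biased genes a negative one. Without mouse 31 it was 18 of 19 male-biased genes (lowest r -0.14), and without mouse 40 also 18 (lowest r -0.23). This check was added after the values had been seen. A group of 19 genes with correlated values, among them Mup7, Mup1 and Slco1a1, had a median GC content of 42.4%. For all genes past the filter it was 49.7%. The bin of lowest GC content had a median log2 deviation of 0.0711 in mouse 36 and 0.0083 in mouse 31. The part of the library of mouse 36 in its own values was not tested. Mup and Cyp4a genes are near-identical copies, and no source used here says how reads matching several copies were counted, so the division between single Mup genes is uncertain. Many of the 19 male-biased genes are such copies, so their correlations are not independent.

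**Figure D4:**
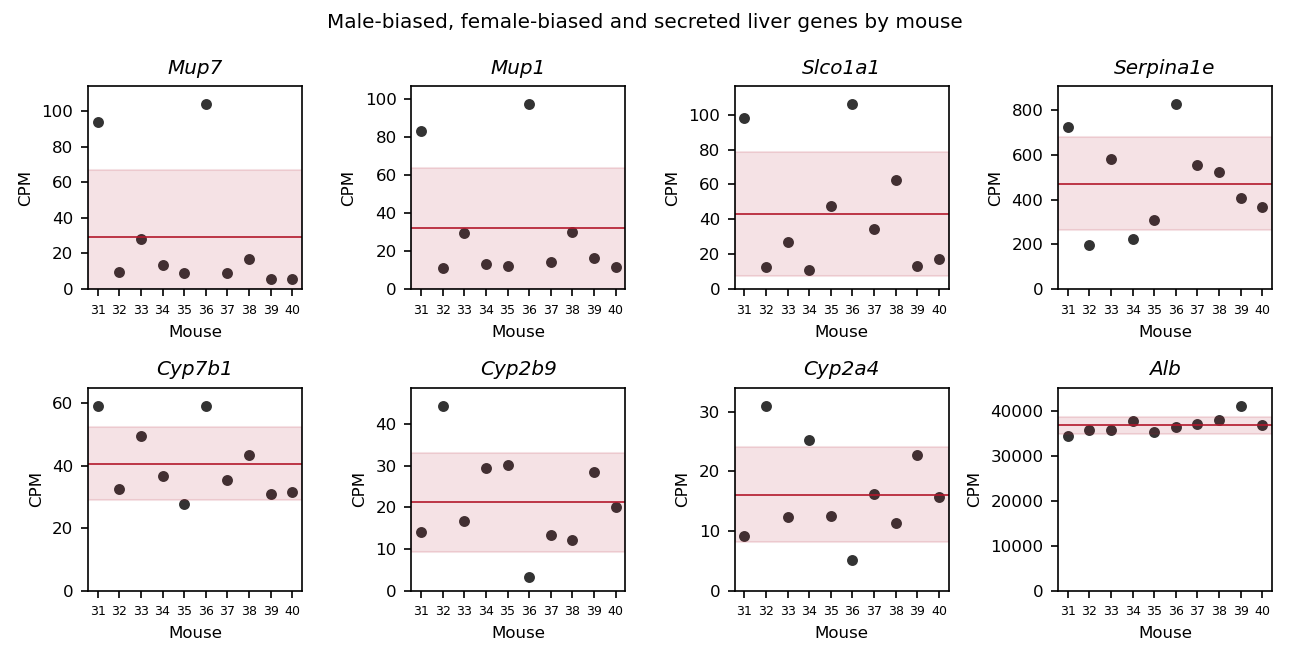
CPM of 8 genes (vertical axes from 0) in each of the 10 mice (horizontal axes), with the mean as a red line and 1 SD as a shaded band that is not drawn below 0. Mice 31 and 36 are highest for Mup7, Mup1, Slco1a1, Serpina1e and Cyp7b1, mouse 32 is highest for Cyp2b9 and Cyp2a4, and Alb stays between 34262 and 41016.

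To find genes that vary together, 12 genes were taken as anchors for known liver programmes, and every other gene was tested for a slope on the log2 level of the anchor across the 10 mice (edgeR's quasi-likelihood test, Benjamini-Hochberg adjustment over 13368 genes for each anchor). The anchors were chosen with earlier results of these data known. In all, 69 gene and anchor pairs passed an adjusted p of 0.05. A slope is the log2 change of a gene per log2 unit of the anchor.

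Interferon-stimulated genes gave the largest set. Isg15, a ubiquitin-like protein that interferon induces, was 7.66 CPM in mouse 35, 16.3 in the median and 23.4 in mouse 33. The mice with low values were 35, 31 and 38. With Isg15 as anchor 53 genes passed, 0.396% of those tested, 41 with a positive and 12 with a negative slope. Of 18 members of the interferon list tested, 11 passed, all positive, and the median slope of the list was 0.62 against -0.01 over all genes. Oas1a, which makes the 2-5A signal that turns on RNase L, had a slope of 0.71 ± 0.08 (SE, adjusted p = 0.0055) and ran from 17.3 CPM in mouse 35 through 28.6 to 35.97 in mouse 33. Dhx58, a regulator of RNA sensing, had 0.77 ± 0.09 (adjusted p = 0.0055), and Cmpk2, a nucleotide kinase, 1.01 ± 0.13 (adjusted p = 0.0055). Ifit3b had a slope of 1.479 ± 0.21 (adjusted p = 0.014), from 4.01 CPM in mouse 35 and 4.18 in mouse 38 to 17.7 in mouse 32.

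Among the positive genes outside the list were Dio1, which activates thyroid hormone, with a slope of 0.61 (adjusted p = 0.014), the acute phase protein Lrg1 with 0.50 (adjusted p = 0.021) and the folate receptor Folr2, a Kupffer cell marker, with 0.79 (adjusted p = 0.036). The negative genes included Abi3bp, an extracellular matrix protein, with a slope of -0.54 (adjusted p = 0.014), and the leptin receptor Lepr with -0.53 (adjusted p = 0.043). Some Kupffer cell markers also differed between these mice. Clec4f, the lectin that defines these resident macrophages in mice, was 15.6 CPM in mouse 35 and 49.4 in mouse 32, and Cd5l, secreted by the same cells, was 72.98 CPM in mouse 35 and 193 in mouse 39. The 9 genes of the Kupffer list past the filter did not all move together. Clec4f and Cd5l each had r = 0.94 with the mean of the others, while C6 had 0.13 and Id3 -0.64. C6 is also on the sex-biased list and Cdh5 on the endothelial list, so the list mean is not one of Kupffer cells alone. In mice 31 to 40 in order, the list mean was -0.18, 0.22, 0.06, -0.21, -0.47, 0.12, 0.19, -0.04, 0.33 and -0.03. The interferon mean in the same order was -0.26, 0.34, 0.35, 0.22, -0.77, 0.09, 0.03, -0.55, 0.48 and 0.09. The part of Kupffer cell content in the interferon values was not tested. Without mouse 35 no gene passed with Isg15, without mouse 39 it was 4, without mouse 38 it was 10, without mouse 31 it was 25 and without mouse 34 it was 28, while without mouse 36 it was 140.

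The promoters of these genes were read from RefSeq (build GRCm38.p6, 250 bases before to 50 after the start), to look for the interferon-stimulated response element. The motif searched was TTTCNNTTTC on either strand, allowing overlap. It was present in 10 of 33 promoters found for Isg15 and its 41 positive genes, against 3.335% of 10495 promoters of genes past the filter. The stretches below show Isg15, Oas1a, Ifit3b, Oas3 and Irgm1 around their matches, 5′ to 3′ on the strand of the gene, with every base of a match in capitals. Isg15 lies on chromosome 4 (chr4:156200845-156200926, minus strand), Oas1a and Oas3 on chromosome 5 (chr5:120907500-120907575 and chr5:120777695-120777764, both minus), Ifit3b on chromosome 19 (chr19:34607739-34607842, plus) and Irgm1 on chromosome 11 (chr11:48871405-48871480, minus). A match is a description of the letters and no proof of a bound site.
Isg15: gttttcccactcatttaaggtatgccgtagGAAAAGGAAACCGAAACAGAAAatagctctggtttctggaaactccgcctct
Oas1a: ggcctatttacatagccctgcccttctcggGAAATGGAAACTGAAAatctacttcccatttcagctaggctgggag
Ifit3b: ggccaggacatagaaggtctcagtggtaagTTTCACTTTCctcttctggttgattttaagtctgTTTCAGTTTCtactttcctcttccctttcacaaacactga
Oas3: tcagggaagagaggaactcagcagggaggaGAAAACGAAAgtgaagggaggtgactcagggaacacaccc
Irgm1: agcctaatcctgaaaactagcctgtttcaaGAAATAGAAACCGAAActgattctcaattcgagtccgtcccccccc
Isg15 held 3 overlapping matches that begin 78 bases before the start, and Oas1a held 2 that begin 20 bases before it. Oas1a and Oas1g, and Ifit3 and Ifit3b, are close copies, so their matches and their counts are not independent.

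Immediate early genes, which cells switch on within minutes of a stimulus, formed a second set. Egr1, a zinc finger transcription factor and the anchor, ran from 91.9 CPM in mouse 33 through 164 to 316 in mouse 40. With Egr1 5 genes passed, 0.0374% of those tested, and all 5 belong to the immediate early list, of which 21 members were tested. Btg2, an antiproliferative gene, had a slope of 0.84 ± 0.08 (adjusted p = 0.00035), with 47.8 CPM in mouse 33, 72.1 in the median and 129 in mouse 40. It passed with any single mouse left out, whereas the count with Egr1 went to 1 without mouse 31, 33 or 40, to 2 without mouse 38, to 3 without mouse 39, to 8 without mouse 36 and to 19 without mouse 37. Fos, a subunit of the AP-1 transcription factor, had a slope of 1.14 ± 0.14 (adjusted p = 0.024), and its relative Fosb 1.65 ± 0.23 (adjusted p = 0.030). Zfp36, which destabilises AU-rich messages, had 0.48 ± 0.07 and Junb 0.46 ± 0.07 (both adjusted p = 0.030). Fos ran from 18.8 CPM in mouse 33 through 31.01 to 70.6 in mouse 40. Egr1 had r = 0.84 with mouse number (permutation p = 0.0021, adjusted p = 0.0504 over 24 relations, r = 0.70 without mice 31 and 40) and rho = 0.82 (permutation p = 0.00585, adjusted p = 0.14), which missed the threshold and was examined after the values had been seen. The labels do not say what the number stands for.

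A cAMP response element, TGACGTCA on either strand, occurred in 1 of 5 promoters of this set that could be used, that of Btg2, against 3.07% of promoters of genes past the filter. A CArG box, the site of serum response factor, occurred in that of Zfp36, against 1.24%. Both stretches are shown with the match in capitals, from chr1:134079284-134079351 and chr7:28379247-28379316, each on the minus strand of GRCm38.p6.
Btg2: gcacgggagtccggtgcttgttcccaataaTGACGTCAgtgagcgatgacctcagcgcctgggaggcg
Zfp36: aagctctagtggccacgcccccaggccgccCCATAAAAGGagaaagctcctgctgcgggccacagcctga

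Several genes of fasting and of glucocorticoid hormone were lowest in mouse 31 or 33. Pck1, which commits carbon to glucose synthesis, ran from 645 CPM in mouse 31 through 1321 to 1902 in mouse 37. G6pc, which releases free glucose, ran from 103 CPM in mice 31 and 33 to 276 in mouse 35, and Igfbp1, a secreted binder of insulin-like growth factors that insulin represses, from 52.5 in mouse 33 through 213 to 285 in mouse 37. Fkbp5, a chaperone of the glucocorticoid receptor, ran from 35.9 CPM in mouse 36 through 63.3 to 105.5 in mouse 40. Zbtb16, a transcription factor induced by the hormone, ran from 55.4 CPM in mouse 33 to 163 in mouse 37, and Per1, a clock gene that is also induced by it, from 48.7 in mouse 31 to 134 in mouse 40. All 13 members of the glucocorticoid list varied beyond counting error, as did 81.2% of all genes. The mean of the list was lowest in mice 31 (-0.57 on the log2 scale) and 33 (-0.48) and highest in mice 40 (0.53) and 37 (0.48). Among the 300 genes with the largest spread for their level, grouped by their correlation, Egr1, Btg2, Fos, Pck1, G6pc, Tat and Igfbp1 fell in 1 group of 22 genes, and Zbtb16, Per1, Fkbp5, Tsc22d3 and Ddit4 in another of 23. These groups were formed from the values themselves and carry no test.

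Lipid synthesis was highest in mouse 33. Fasn, fatty acid synthase and the anchor, was 907 CPM in mouse 33, 552 in the median and 376 in mouse 36. With Fasn 3 genes passed, 0.0224% of those tested. Thrsp, a nuclear protein of lipogenic tissues, had a slope of 1.482 ± 0.17 and Srebf1, the transcription factor that drives lipogenic genes, 0.74 ± 0.09 (both adjusted p = 0.0070). Both are members of the lipogenesis list, of which 19 were tested. Mt2, a metallothionein that binds zinc, had a negative slope of -1.53 ± 0.19 (adjusted p = 0.022), at 27.7 CPM in mouse 33 and 97.2 in mouse 40. Thrsp was 43.1 CPM in mouse 33 and 10.1 to 20.6 in the other 9, and without mouse 33 its biological CV went from 0.494 to 0.210. Without mouse 33 0 genes passed with Fasn, without mouse 32 it was 7 and without mouse 36 it was 13. Scd1, which desaturates fatty acids, ran from 241 CPM in mouse 35 through 524 to 1136 in mouse 33, and it did not pass with Fasn.

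Cholesterol synthesis followed other mice. Sqle, squalene epoxidase and the anchor, was highest in mice 38 (110 CPM) and 31 (107 CPM) and lowest in mouse 39 (64.3 CPM), with a median of 81.4. With Sqle 2 genes passed, 0.015% of those tested, both on the cholesterol list. Idi1, an isoprenoid isomerase, had a slope of 0.96 ± 0.12 (adjusted p = 0.015) and Cyp51, lanosterol demethylase, 0.87 ± 0.12 (adjusted p = 0.033). Of 24 list members tested, 19 had an unadjusted p under 0.05 with a positive slope and 0 a negative one, where 8.32% of all genes had an unadjusted p under 0.05 in either direction. Neither partner passed without mouse 31, 34 or 38, the count without mouse 38 or 39 was 1, and without mouse 32 or 35 it was 5.

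Several targets of PPAR-alpha, the fatty acid receptor that drives fat burning in liver, were highest in mouse 32. The mean of the list was highest there too (0.50), with a gap of 0.425 of the range, which is under 0.466. Other members differed, with Angptl4, an inhibitor of lipoprotein lipase, and Fabp1, a fatty acid carrier, both highest in mouse 37 at 165.5 and 590 CPM. Fabp1 had r = 0.18 with the mean of the other list members. It fell in a group of 23 genes with ribosomal genes such as Rpl27a and Rpl19. That group had a median transcript length of 1049 bases, against 3440 for all genes past the filter. The part of the library of mouse 37 in the Fabp1 value was not tested. Cyp4a14, a fatty acid hydroxylase and the anchor, was 345 CPM in mouse 32, 135 in the median and 80.4 in mouse 33. With it 4 genes passed, 0.0299% of those tested. They were the acyl-CoA thioesterases Acot2 (slope 0.53 ± 0.07) and Acot1 (0.72 ± 0.09), both at adjusted p = 0.014, the cytochrome Cyp2a22 (0.62 ± 0.09, adjusted p = 0.032) and the magnesium transporter gene Nipal1 (0.85 ± 0.12, adjusted p = 0.035). Acot1 was 15.6 CPM in mouse 32 and 5.004 to 9.35 in the others. None of these 4 passed without mouse 32, and the count was 1 without mouse 32 and 1 without mouse 33. The prolactin receptor Prlr was 101 CPM in mouse 32 and 28.7 to 58.2 in the others, and its biological CV went from 0.505 to 0.250 without that mouse. The same liver had the lowest means of the macrophage (-0.22) and lipid-associated macrophage lists, though not of the resident Kupffer cell list (0.22). Lyz2, lysozyme of macrophages, was 763 CPM in mouse 32 and 1163 to 1599 in the others, and the mean of the 12 lipid-associated macrophage genes was -0.36 there and -0.09 to 0.19 elsewhere.

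Of the clock genes examined, Dbp, Per3 and Nfil3 set mouse 34 apart, while the mean of the whole list did not (-0.17 there, gap 0.167 of the range). Dbp, a circadian transcription factor, was 36.8 CPM in mouse 34, 75.8 in the median and 98.6 in mouse 33. With Dbp 2 genes passed, 0.015% of those tested. Per3, a period gene, had a slope of 0.68 ± 0.09, and Nfil3, a repressor that binds the same D-box as DBP, a slope of -0.97 ± 0.14 (both adjusted p = 0.038). Per3 was 20.9 CPM in mouse 34 and 29.8 to 44.3 elsewhere, and Nfil3 was 20.9 CPM in mouse 34 and 7.59 to 13.0 elsewhere. Both missed the threshold with RLE scaling in place of TMM (adjusted p = 0.051). The count with Dbp was 0 without mouse 31, 32, 35, 37, 38, 39 or 40, and 4 without mouse 34 and 5 without mouse 33. The promoters of Dbp and Per3 were searched, and that of Nfil3, with its negative slope, was not. The D-box (TTANGTAA) was found in 1 of these 2, that of Per3 with 2 matches, against 1.49% of promoters of genes past the filter. The E-box CACGTG was in 0 of these 2, against 9.85%. For Sqle and its partners Idi1 and Cyp51, the sterol element TCACNCCAC was in 0 of the 2 promoters that could be used, against 1.105%. The Per3 stretch is chr4:151044786-151044900 on the minus strand of GRCm38.p6, with the matches in capitals.
Per3: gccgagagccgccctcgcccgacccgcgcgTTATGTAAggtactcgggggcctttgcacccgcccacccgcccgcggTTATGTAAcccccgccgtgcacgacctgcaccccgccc

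**Figure D5:**
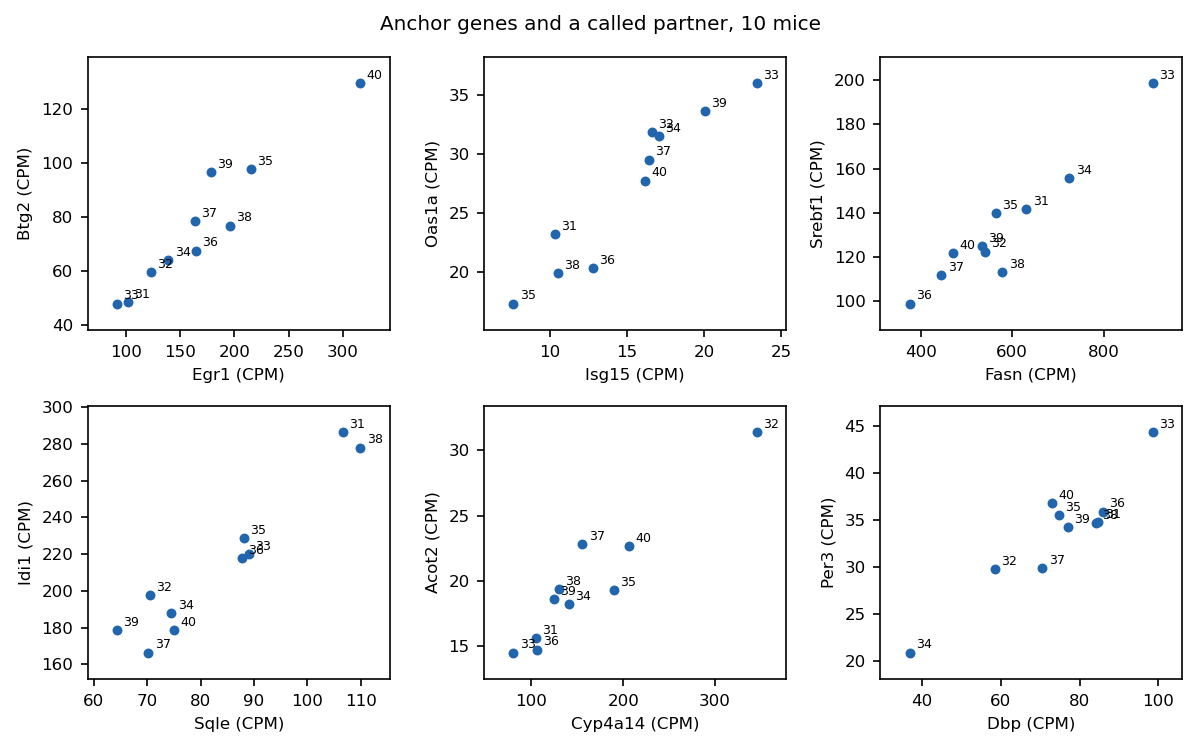
CPM of 6 anchor genes (horizontal axes) against 1 partner each that passed the test (vertical axes), 1 point per mouse with its number. Mouse 40 is highest for Egr1 and Btg2, mouse 33 for Fasn and Srebf1, mouse 32 for Cyp4a14 and Acot2, and mouse 34 is lowest for Dbp and Per3.

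The other 6 anchors drew 0 genes past the threshold with edgeR, 0% of those tested for each. For Col1a1, the scar collagen, 1495 genes (11.2%) had an unadjusted p under 0.05 and DESeq2 called 176. For Saa1, an acute phase protein, the counts were 1246 (9.32%) and 35. For Trem2 they were 1159 (8.67%) and 27, and for Hspa5, the main chaperone of the endoplasmic reticulum, 639 (4.78%) and 25. For Krt19, a bile duct keratin, they were 683 (5.11%) and 5, and for Mki67, a proliferation marker, 593 (4.44%) and 1. If no gene followed an anchor, a share of 0.05 would be expected on average at this unadjusted threshold. With limma-trend all 6 also drew 0. Among these anchors, Saa1 ran from 59.0 to 110 CPM, Krt19 from 13.0 to 21.5, Mki67 from 56.9 to 75.4, and Hspa5 from 600 to 858. A count of 0 with 10 mice does not show that no gene follows these anchors.

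Between the 12 anchors themselves 0 of 66 pairs passed an adjusted p of 0.05 by a permutation test of Pearson's r, and 5 had an unadjusted p under 0.05. The pair with the lowest p was Cyp4a14 with Hspa5, at r = -0.85 (permutation p = 0.0011, adjusted p = 0.075) and rho = -0.61 (permutation p = 0.066, adjusted p = 0.60), and r was -0.63 without mice 32 and 33. Saa1 with Isg15 had r = 0.81 (permutation p = 0.0045, adjusted p = 0.12) and rho = 0.65 (permutation p = 0.048, adjusted p = 0.60), and r was 0.45 without mice 33 and 35. Col1a1 with Isg15 had r = 0.80 (permutation p = 0.0053, adjusted p = 0.12) and rho = 0.87 (permutation p = 0.0022, adjusted p = 0.14), and r was 0.90 without mice 34 and 38. The first 2 principal components were tested against total count, mouse number and the share of counts on mt-Atp6, the only mitochondrially encoded gene analysed here. The lowest p of the 6 was for the first component with total count, at r = -0.65 (permutation p = 0.036, adjusted p = 0.22) and rho = -0.54 (permutation p = 0.11, adjusted p = 0.68), with r = -0.66 without mice 39 and 40.

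Further genes with a large spread lay outside these sets. Dmbt1, a mucin-like glycoprotein of ducts and gut, ran from 0.328 CPM in mouse 40 through 21.6 to 82.4 in mouse 34, with 5 mice below 15 and 4 above 60. Foxq1, a forkhead transcription factor, ran from 11.2 CPM in mouse 35 through 29.3 to 95.7 in mouse 38. Its high mice, 38, 31 and 36, were also high for Phlda1, which ran from 33.7 through 47.0 to 114 CPM, and Foxq1 and Phlda1 fell in 1 group with Myc, Cish, Socs3 and Lgr5. Cish and Socs3 are feedback inhibitors of JAK and STAT signalling. The plasma cell gene Jchain ran from 0.700 CPM in mouse 34 to 2.72 in mouse 35.

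Some ribosomal and histone genes stood apart in the libraries of mice 36 and 37. Rpl27a, a ribosomal protein gene, was 108 CPM in mouse 37 and 50.1 to 68.2 in the others, and Hist1h4h, a histone H4 gene, was 31.6 CPM in mouse 36 and 54.8 to 88.0 in the others. The group of 10 genes around Hist1h4h had a median transcript length of 786.5 bases and that of 23 genes around Rpl27a 1049. For all genes past the filter the median was 3440. Without mice 36 and 37 the median pairwise r of the ribosomal list went from 0.74 to 0.58 and that of the respiratory chain from 0.62 to 0.33, while that of the interferon list went from 0.87 to 0.92. The part of library differences in the ribosomal values was not tested. Haemoglobin genes were highest in mouse 37, with Hbb-bs at 10.6 CPM there and 0.722 to 2.99 in the others.

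The study blocks BLT1, the high-affinity receptor for leukotriene B4, a lipid that draws in neutrophils and other leukocytes. In the livers without compound its gene Ltb4r1 had 146 counts over the 10 mice, 0.290 to 0.802 CPM, and did not pass the filter. Alox5, the first enzyme of leukotriene synthesis, had 205 counts and did not pass either. Alox5ap, its membrane partner, ran from 21.1 to 28.2 CPM and Lta4h, which makes leukotriene B4, from 30.6 to 37.4 CPM. Both varied beyond counting error, with biological CVs of 0.0724 and 0.0403, below the median of all genes.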

How the data were processed

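Liver RNA of 20 mice was sequenced on 2 lanes each (NovaSeq, paired reads), per the labels' protocols after a stranded total RNA kit with ribosomal RNA removal, although the molecule label reads polyA RNA. The authors deposited whole-number read counts per protein-coding gene with 1 column per mouse; the build was GRCm39 per the submitters' processing notes, while the counting tool and the way lanes were merged are not stated there. The authors also deposited FPKM values rounded to whole numbers, treated here as a score and used only to compare genes. No column of per-sample values was left unmapped (0). The 43 identifiers without a name held 0.00785% of the counts. From the counts, TMM-scaled CPM (edgeR 4.0.16, R 4.3.3), biological CV, chi-square tests with 9 degrees of freedom, principal components of log2 CPM (prior count 2) and edgeR quasi-likelihood slopes on 12 anchors were computed for genes at 1 CPM or more in 5 or more mice; DESeq2 1.42.0 and limma 3.58.1 were alternatives. Groups of genes came from average linkage of 300 genes on 1 minus Pearson's r. Permutation tests were two-sided with 100000 draws. Scripts were tested on simulated data. No 2 libraries were duplicates: all 45 pairs of mice differed by more than sampling noise, with a chi-square per degree of freedom of at least 8.45. The labels name each mouse but no separate culture, cage or batch. The p-values of slopes and correlations measure the spread between these 10 animals and their libraries, which cannot be told apart. Those of the chi-square test measure spread beyond counting error.

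Genes named were those with the 15 highest FPKM, the 20 largest biological CVs at a mean of 5 CPM or more, the 10 largest relative to trend, the 10 smallest at 50 CPM or more, the anchors with 5 partners each, up to 4 members of each list and up to 6 of the 5 largest groups. Other named genes, among them Dio1, Lrg1, Folr2, Lepr, Abi3bp, Col1a2 and Hist1h4h, were chosen after their values were seen. The anchors, members and lists were chosen with earlier results of these data known. Promoters came from RefSeq (GRCm38.p6), and transcript length and GC content from an annotation of GRCm38; neither is the authors' build, and they were joined by gene, not by position. A few genes are not reported here.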

Additional observations from a re-analysis of the deposited data

Results flagged for a closer look

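Genes and list means were marked where 1 mouse lay apart from the other 9, the gap to its nearest neighbour exceeding 0.466 of the range. Of 125 genes examined 17 were marked and of 50 list means 8, and chance marks about 5% of groups. Many of the genes were examined because they vary.

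In mouse 36 the lowest values were Ftl1 (gap 0.589), Cyp2b9 (0.503) and Hist1h4h (0.538), and the highest was Selenop (0.53). The means of choline and one-carbon genes (0.479) and of the respiratory chain (0.473) were lowest there too. Mouse 37 was highest for Fabp1 (0.779), Apoe (0.547), Hbb-bs (0.482) and Rpl27a (0.599). Mouse 32 was highest for Acot3 (0.67) and for the mean of xenobiotic genes (0.51), and lowest for Lyz2 (0.57), Spp1 (0.485) and the mean of lipid-associated macrophage genes (0.49).

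Mouse 34 was lowest for Dbp (0.468) and Per3 (0.473), highest for Nfil3 (0.466 after rounding), and lowest for the mean of neutrophil genes (0.529), which rests on 5 genes, 4 of them near 1 to 2 CPM and Csf3r at a mean of 21.2 CPM. Mouse 33 was highest for Thrsp (0.507). Mouse 40 was lowest for Dmbt1 (0.491) and for the mean of gallbladder and intestine genes (0.475), a list of 4 genes past the filter that holds Dmbt1. Mouse 35 was highest for the mean of mesothelial genes (0.586), and mouse 39 was lowest for mt-Atp6 (0.531), the single gene behind the mean of mitochondrially encoded genes (0.531).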

How the results depend on the processing

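The count of genes varying beyond counting error stayed within 1.5 times its value under all 16 alternatives. Genes with a biological CV of 0.5 or more numbered 47, against 1453 with no filter beyond 1 count and 28 with 1 CPM in all 10 mice. Median biological CV was 0.0683 to 0.0802 with 1 mouse left out (lowest without mouse 36), 0.0666 without mice 36 and 37, and 0.112 as the CV of rounded FPKM. The first component held 16.3% of the variance with no filter, 23.7% with 1 CPM in all mice, 22.3% to 25.3% with 1 mouse left out and 29.0% without mice 36 and 37. Genes following an anchor gene across mice, 69 in all, became 880 with DESeq2, 7 at a threshold of 0.01 and 15 to 172 with 1 mouse left out. Anchor pairs past the threshold ranged from 0 to 2 with 1 mouse left out. Leaving out mice 36 and 37 together was chosen after seeing the data; it moved the median pairwise r of the macrophage list to 0.68 and of secreted hepatocyte proteins to 0.59. With 1 mouse left out the median r of male-biased genes was 0.745 to 0.840. With no filter Col1a1 drew 11 genes and Krt19 3. The causes of these shifts were not tested. No paired analysis was possible because there is 1 group. With 10 mice, partners of modest slope, and genes near 1 CPM, are measured with least precision.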
